A study of Sus scrofa with 3 samples.

Results

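The genes described here make triglyceride in the liver, package it into lipid droplets and break it down again. The list held GPAT, AGPAT2, LPIN1, DGAT, DGAT2, PLIN2, CIDEC, PNPLA2, G0S2 and LIPE, and 9 of these 10 genes were found under those symbols among 22945 mRNA features. The remaining gene, G0S2, was read from the entry LOC100624161, whose gene number RefSeq assigns to G0S2, and it is given beside the 9 genes without being counted among them. RefSeq lists DGAT as another name of DGAT1, and the gene tables of the study describe GPAT as the mitochondrial enzyme GPAM.

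Liver RNA came from male Chinese Wuzhishan miniature pigs that were all kept on the same diet rich in fat and cholesterol (HFC diet), made by adding 15% lard, 1.5% cholesterol, 0.5% sodium cholate and 10% egg yolk powder to normal feed. By the methods of the study the pigs were 6 to 7 months old when obtained, and livers were taken 12 weeks after the operation. The 3 groups were intact pigs with a sham operation (IM), surgically castrated pigs (CM), and castrated pigs given 10 mg/kg testosterone propionate in corn oil each week by intramuscular injection from the day of castration (CMT). Whether IM and CM pigs received corn oil alone is not given in the sources used here. Each group was sequenced as 1 pooled library, with 3 pigs per pool by the labels and 6 pigs per group by the methods of the study. There were no replicates, so no difference between groups could be tested, and the variation between pigs is unknown. No group on a standard diet was analysed here, so the effect of the diet itself cannot be read from these libraries.

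Triglyceride is built by adding fatty acids to a glycerol backbone in a fixed order. Glycerol-3-phosphate acyltransferases such as GPAT attach the first fatty acid, AGPAT enzymes attach the next, lipins such as LPIN1 remove the phosphate, and DGAT1 and DGAT2 attach the last one. The product is stored in droplets coated with perilipins such as PLIN2 and enlarged by proteins such as CIDEC, and it is released by the lipase PNPLA2, which G0S2 inhibits, and by the hormone-sensitive lipase LIPE, which is best known from adipose tissue.

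The authors deposited FPKM values, which are read numbers per kilobase of exon and scaled to the library. The values rise in steps, from which whole reads were recovered, and 1 FPKM was worth 2.51, 3.42 and 2.04 reads per kilobase in the IM, CM and CMT libraries. In the same order the libraries held 32197910, 36127092 and 25420123 recovered reads. At this depth 1 FPKM on its usual scale would be worth far more reads, so the deposited values are larger than usual FPKM values, the minimum of 1 FPKM used below is a low one, and how the authors set the divisors is not given in the sources used here. The range in parentheses after a ratio is its 95% exact binomial interval, which comes from these reads and covers counting error only. Such an interval is too wide where the recovery divided a gene's reads by a shared factor, and too narrow where both mates of a read pair were counted. The marker genes were those of liver, and albumin (ALB) was the highest of the 10 hepatocyte markers in each library, with an FPKM of 476360 in CM, the middle value of the 3 libraries. RNA of a whole liver piece was measured, so fewer cells of a type and less RNA per cell cannot be told apart.

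GPAT, the enzyme of the first acylation, was highest in CM. It had FPKM values of 110.1, 337 and 186 in the IM, CM and CMT livers, from 933, 3888 and 1283 recovered reads. CM was the highest library and IM the lowest, with CMT between them. GPAT was 3.06-fold higher in CM than in IM (interval 2.85 to 3.29) and 1.81-fold lower in CMT than in CM (1.70 to 1.93). CMT was 1.69-fold above IM (1.55 to 1.84). Of the 15613 mRNA features that reached 1 FPKM in each of the 3 libraries, 240 were at least as far up in CM versus IM as GPAT, which is 1.54%.

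AGPAT2, the enzyme of the next acylation, was instead lowest in CM. Its FPKM was 1098 in IM, 701 in CM and 1206 in CMT. CM was the lowest library, while IM and CMT lay close together. AGPAT2 was 1.57-fold lower in CM than in IM (1.44 to 1.70) and 1.72-fold higher in CMT than in CM (1.58 to 1.87). The ratio of CMT to IM was 1.10 (1.01 to 1.19).

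LPIN1, the phosphatidate phosphatase that forms diacylglycerol and also acts as a transcriptional coactivator, showed the widest spread among the genes of the list. Its FPKM was 238 in IM, 45.5 in CM and 73.7 in CMT. IM stood far above both castrated groups, and CMT lay nearer to CM than to IM. LPIN1 was 5.24-fold lower in CM than in IM, a log2 ratio of -2.39 that was matched or exceeded downward by 75 of the 15613 features. It was 1.62-fold higher in CMT than in CM and still 3.24-fold lower in CMT than in IM. The LPIN1 values did not resolve into whole reads at any length of up to 10000 bases, so no counting interval is given.

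The final step is carried out by unrelated enzymes with the same reaction, DGAT1 and DGAT2, and their values differed in order. DGAT had FPKM values of 133, 214 and 139.7 in the IM, CM and CMT livers. CM was the highest library, and IM and CMT were close. DGAT was 1.61-fold higher in CM than in IM (1.41 to 1.84) and 1.53-fold lower in CMT than in CM (1.33 to 1.76), while the ratio of CMT to IM of 1.05 had an interval of 0.891 to 1.24.

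DGAT2 had FPKM values of 739.9, 862 and 469.8 in the IM, CM and CMT livers, so that it was the more abundant of the pair in each library. CMT was the library that stood apart. The ratio of CM to IM was 1.16 (1.01 to 1.35), within the 1.5-fold threshold, whereas DGAT2 was 1.83-fold lower in CMT than in CM (1.53 to 2.21) and 1.58-fold lower in CMT than in IM (1.30 to 1.92). The values of DGAT2 resolved into whole reads at a length of 168 bases and those of AGPAT2 at 451 bases, shorter than an mRNA of these enzymes, so their true reads may be a multiple of those recovered and their intervals too wide. The same may hold for other genes, such as DGAT, which resolved at 965 bases, since the shortest fitting length was kept.

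**Figure D1:**
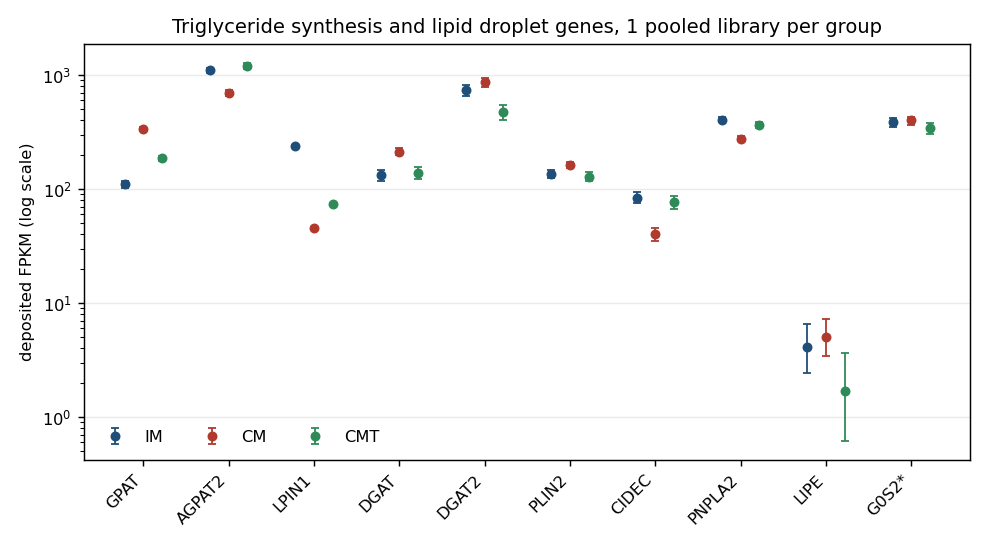
Deposited FPKM (log scale) of the 9 genes found by symbol and of G0S2 (asterisk, read from LOC100624161) in the pooled libraries IM, CM and CMT. Points are single libraries and bars are 95% Poisson counting intervals, which were not available for LPIN1. GPAT ranges from 110.1 in IM to 337 in CM, LPIN1 from 45.5 in CM to 238 in IM, and LIPE lies below the other genes in each library.

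The droplet genes of the list differed from each other. PLIN2, the perilipin that coats droplets in most cell types, had FPKM values of 137, 162 and 128 in the IM, CM and CMT livers. Its values were the closest together of the 9 genes, with a highest to lowest ratio of 1.26. The ratio of CM to IM was 1.18 (1.07 to 1.31), and PLIN2 was 1.26-fold lower in CMT than in CM (1.13 to 1.41). Neither difference reached 1.5-fold.

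CIDEC, which promotes fusion and growth of droplets, had FPKM values of 84.1, 40.1 and 77.2 in the IM, CM and CMT livers, from 311, 202 and 232 reads. CM was the lowest library. CIDEC was 2.10-fold lower in CM than in IM (1.75 to 2.52) and 1.93-fold higher in CMT than in CM (1.59 to 2.34). The ratio of CMT to IM was 0.918 (0.771 to 1.09).

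PNPLA2, the adipose triglyceride lipase that starts droplet breakdown, had FPKM values of 405, 277 and 364 in the IM, CM and CMT livers. CM was again the lowest library, but by less than 1.5-fold. PNPLA2 was 1.46-fold lower in CM than in IM (1.36 to 1.57) and 1.31-fold higher in CMT than in CM (1.21 to 1.42). Its inhibitor G0S2 was nearly level, with FPKM values of 385, 399.8 and 341 in the IM, CM and CMT livers and a ratio of CM to IM of 1.04 (0.916 to 1.18).

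LIPE was the least abundant gene of the list in each library, with FPKM values of 4.12, 5.04 and 1.69 in the IM, CM and CMT livers. These values stood for 18, 30 and 6 recovered reads at a length of 1741 bases, and the true reads may be a multiple of these. CMT was the lowest library, and LIPE was 2.98-fold lower in CMT than in CM with a wide interval of 1.22 to 8.77. The ratio of CM to IM was 1.22 (0.660 to 2.33), and LIPE was 2.44-fold lower in CMT than in IM with an interval of 0.927 to 7.50. Both intervals included 1 on the recovered reads, and they are too wide if the true reads are a multiple. Of the 7 adipocyte markers 5 were matched, with a summed FPKM of 250.1 to 327 over the libraries, of which CFD alone, listed as LOC396877, held 238 to 316. PLIN1, the perilipin of adipocytes, was at 11.6, 9.80 and 8.70 FPKM in IM, CM and CMT. The defining adipocyte genes ADIPOQ and LEP were listed at 0 in IM, CM and CMT, where 3 reads on a transcript of 1 kb would have shown FPKM values of 1.20, 0.877 and 1.47 in the IM, CM and CMT livers.

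All 9 genes passed the FPKM minimum of 1 in the 3 libraries. Between CM and IM, 5 of the 9 differed at least 1.5-fold, with GPAT and DGAT higher in CM and AGPAT2, LPIN1 and CIDEC lower. Of all 15613 mRNA features above the minimum, 23.2% passed this threshold, 11.1% upward and 12.1% downward in CM. Between CMT and CM, 7 of the 9 passed, with AGPAT2, LPIN1 and CIDEC higher in CMT and GPAT, DGAT, DGAT2 and LIPE lower, against 25.7% of all features (12.1% upward and 13.5% downward in CMT). CMT versus IM gave 4 of the 9, with GPAT higher and LPIN1, DGAT2 and LIPE lower in CMT, against 16.8% of all features (6.67% upward and 10.1% downward). With the added condition that the counting interval excludes 1, 4 of the 9 passed between CM and IM, 6 between CMT and CM and 2 between CMT and IM, against 17.1%, 18.9% and 9.65% of all features, and LPIN1, which has no interval, could not pass. The shares of the 9 genes, 55.6%, 77.8% and 44.4%, lay above these backgrounds. The genes had been chosen with earlier results of these data known, so the shares are a description. The comparisons share libraries, and the opposite signs in CM versus IM and CMT versus CM are not independent of each other.

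The 9 genes had a median log2 ratio of 0.22 between CM and IM, with a range of -2.39 to 1.61. Between CMT and CM the median was -0.33 (range -1.58 to 0.95), and between CMT and IM it was -0.12 (-1.69 to 0.76). Over all features these medians were -0.020, 0.013 and -0.0072. The list therefore held genes on both sides in each comparison rather than a common shift. When values were scaled to the recovered reads, the log2 ratios of CM to IM of all features moved up by 0.28 and those of CMT to CM moved down by 0.24. Features higher in CM then made up 77.4% of those past 1.5-fold between CM and IM, against 48.0% with the deposited values. For CMT versus CM the share of higher features went from 47.3% to 23.4%. Under that scaling the log2 ratios of AGPAT2 were -0.37 between CM and IM and 0.55 between CMT and CM, and that of LPIN1 between CMT and CM was 0.46, so that these 3 differences lay within 1.5-fold.

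**Figure D2:**
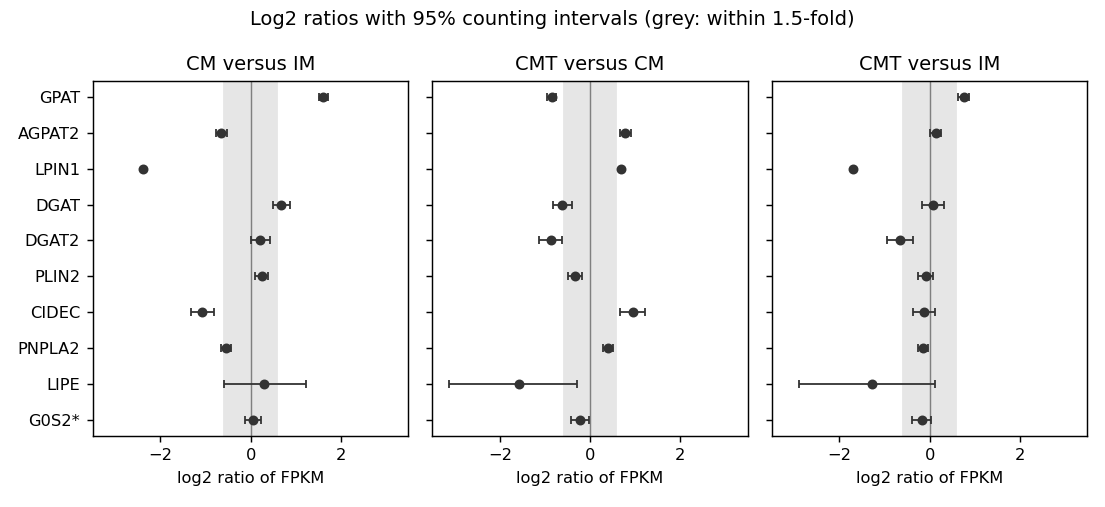
Log2 ratio of FPKM of the 9 genes and G0S2 (asterisk, read from LOC100624161), with a panel for each pair of libraries. Points are ratios of 2 single libraries, bars are 95% exact binomial counting intervals (none for LPIN1) and the grey band marks ratios within 1.5-fold. GPAT (1.61) and LPIN1 (-2.39) lie farthest from 0 in CM versus IM, and the interval of LIPE is the widest in each panel.

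The order of the levels within a library does not depend on how libraries are scaled to each other. In IM the order from high to low was AGPAT2, DGAT2, PNPLA2, G0S2, LPIN1, PLIN2, DGAT, GPAT, CIDEC and LIPE. PNPLA2 and G0S2 did not differ beyond counting error there (ratio 1.05, 0.944 to 1.17), nor did PLIN2 and DGAT (1.03, 0.898 to 1.18). GPAT held rank 8 in IM, rank 4 in CM and rank 5 in CMT, while LPIN1 held rank 5 in IM, rank 8 in CM and rank 9 in CMT. In CM, DGAT2 came first and AGPAT2 second (1.23, 1.10 to 1.37). In CMT, AGPAT2 was again first, at 2.57 times the level of DGAT2 (2.18 to 3.05). LPIN1 had no interval, so its place beside CIDEC in CM, at a ratio of 1.14, and in CMT, where CIDEC was 1.05 times as high, could not be judged.

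Ratios between genes of 1 library are likewise free of that scaling. GPAT stood at 0.100 of the AGPAT2 level in IM (0.0920 to 0.109), 0.480 in CM (0.449 to 0.514) and 0.154 in CMT (0.142 to 0.167). AGPAT2 was thus 9.98-fold above GPAT in IM, 2.08-fold in CM and 6.48-fold in CMT. DGAT was at 0.180 of DGAT2 in IM (0.153 to 0.211), 0.248 in CM (0.221 to 0.279) and 0.297 in CMT (0.244 to 0.364), with CMT the highest and its interval overlapping that of CM.

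The lipase and its inhibitor were nearly equal in IM and CMT. G0S2 was at 0.951 of PNPLA2 in IM (0.852 to 1.06) and 0.938 in CMT (0.824 to 1.07), but at 1.44 in CM (1.31 to 1.59), with an interval that did not overlap those of IM and CMT. LIPE reached 0.0102 of PNPLA2 in IM (0.00602 to 0.0161), 0.0182 in CM (0.0122 to 0.0261) and 0.00464 in CMT (0.00170 to 0.0101), so that the interval of IM overlapped both others. PLIN2 showed a like order against PLIN5, the perilipin of oxidative tissues (listed as LSDP5), with 0.856 in IM (0.763 to 0.960), 1.57 in CM (1.41 to 1.76) and 0.853 in CMT (0.748 to 0.973). LPIN1 made up 54.3% of the summed FPKM of LPIN1 and LPIN3 in the IM liver pool, 38.1% in CM and 35.0% in CMT. The third lipin, LPIN2, was matched to no entry by symbol, synonym or gene number, so it is missing from that sum.

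**Figure D3:**
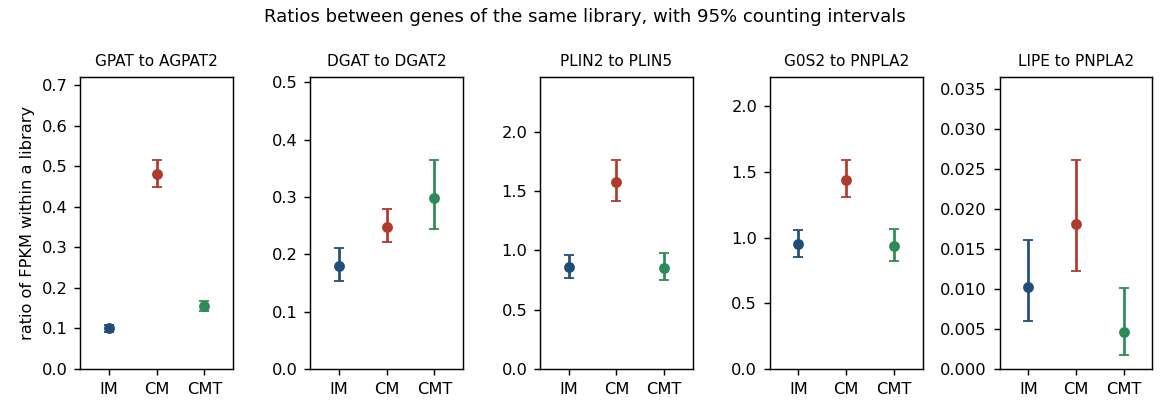
Ratios of FPKM between genes of the same library, with 95% exact binomial counting intervals, for the libraries IM, CM and CMT (linear axes from 0, a separate scale per panel). GPAT to AGPAT2 is 0.480 in CM against 0.100 in IM and 0.154 in CMT, and G0S2 to PNPLA2 is 1.44 in CM against 0.951 and 0.938.

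Other genes of the pathway were taken as a list of 50 genes, of which 47 were matched and 44 passed the FPKM minimum. The list was drawn up by general function but with earlier results of these data known, so its shares are a description too. Between CM and IM, 5 were at least 1.5-fold higher and 9 lower in CM, 31.8% of the 44. Between CMT and CM, 12 were higher and 4 lower in CMT (36.4%), and between CMT and IM 6 were higher and 4 lower (22.7%). These shares lay nearer to the backgrounds of 23.2%, 25.7% and 16.8% than those of the 9 genes. The median log2 ratios were -0.21, 0.25 and 0.042. The balance between CM and IM depended on the scaling, since 7 genes were higher and 6 lower in CM with scaling to recovered reads or to equal column sums, and between CMT and CM 8 were then higher in CMT in place of 12.

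Supply of glycerol-3-phosphate, by 3 matched genes, stayed within 1.5-fold in each comparison, with GPD1 at FPKM values of 758, 835 and 787 in the IM, CM and CMT livers. GK came close to the threshold, with FPKM values of 148, 141 and 209 in the same order. It was 1.49-fold higher in CMT than in CM (1.203 to 1.835) and 1.41-fold higher in CMT than in IM (1.127 to 1.768). Of all features, 23.2% were past 1.5-fold in CM versus IM, 25.7% in CMT versus CM and 16.8% in CMT versus IM. The long-chain acyl-CoA synthetases, which activate fatty acids for esterification or oxidation, were within 1.5-fold between CM and IM in 4 of 4 genes above the minimum. Between CMT and CM 3 of them were higher in CMT, against 12.1% of all features, with log2 ratios of 1.30 for ACSL3, 0.94 for ACSL4 and 0.68 for ACSL1. ACSL3, a synthetase found on growing droplets, had FPKM values of 429, 299 and 738 in the IM, CM and CMT livers.

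AGPAT9, which encodes the endoplasmic reticulum enzyme GPAT3, had FPKM values of 14.4, 46.8 and 6.03 in the IM, CM and CMT livers, from 106, 468 and 36 reads. It was highest in CM like GPAT but, unlike GPAT, lowest in CMT. The ratio of CM to IM was 3.24 (2.62 to 4.04), and AGPAT9 was 7.75-fold lower in CMT than in CM (5.52 to 11.2). AGPAT6, which encodes GPAT4, was far more abundant and within 1.5-fold, with FPKM values of 572, 420.5 and 482 in the IM, CM and CMT livers.

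Among the other acylglycerol-phosphate acyltransferases, AGPAT5 passed the threshold in CMT versus IM, with a log2 ratio of 0.60, and AGPAT1, AGPAT3 and AGPAT4 lay within 1.5-fold in each comparison. LPIN3, the other lipin measured, was lowest in CM, with FPKM values of 201, 74.1 and 137 in the IM, CM and CMT livers, and its log2 ratios were -1.44 between CM and IM and 0.88 between CMT and CM. Monoacylglycerol acyltransferases form diacylglycerol by another route. MOGAT1 had FPKM values of 166, 101 and 118 in the IM, CM and CMT livers and was 1.65-fold lower in CM than in IM (1.47 to 1.85). MOGAT2 was past 1.5-fold in CMT versus IM, at a log2 ratio of 0.71, but on 6 and 8 reads, with an interval of the ratio of 0.499 to 5.74, so that the difference was not detectable at this depth. MOGAT3, the most abundant of these enzymes, was within 1.5-fold throughout.

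Droplet coat and droplet formation proteins other than PLIN2 and CIDEC made up 14 matched genes. Between CM and IM, 5 of them were lower and 2 higher in CM, against 12.1% and 11.1% of all features. The 5 lower genes include FITM1 and CIDEA, which rest on few reads, as given below. The median log2 ratio of the 14 genes was -0.47, against -0.020 over all features. Scaling to the recovered reads moves the log2 ratios of CM to IM up by 0.28. Between CMT and CM, 5 were higher and 2 lower in CMT, against 12.1% and 13.5% of all features. PLIN3, a perilipin of the cytosol and of small droplets, had FPKM values of 811, 361 and 857 in the IM, CM and CMT livers, 2.25-fold lower in CM than in IM (2.12 to 2.39). PLIN5 measured 159.7, 103 and 150.5 FPKM in the IM, CM and CMT livers. PLIN4 had the other order, with FPKM values of 11.2, 34.1 and 14.1 in the IM, CM and CMT livers. The perilipins thus held both directions, with PLIN4 higher in CM than in IM at a log2 ratio of 1.61 and PLIN3 lower at -1.17.

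The FITM proteins, which help droplets to bud from the endoplasmic reticulum, were lowest in CM. FITM2 had FPKM values of 39.0, 19.3 and 34.8 in the IM, CM and CMT livers, and FITM1 had 7.23, 3.32 and 10.6, on 10 to 19 reads per library. The ratio of CM to IM for FITM1 was 0.459 with an interval of 0.186 to 1.07, so that this difference was not detectable at this depth. CIDEB, a relative of CIDEC that is typical of hepatocytes (listed as CIDE-B), had FPKM values of 2442, 1657 and 2565 in the IM, CM and CMT livers. Its log2 ratio was -0.56 for CM versus IM, within 1.5-fold, and 0.63 for CMT versus CM. CIDEA was scarce, on 16, 8 and 5 reads, with ratios to IM of 0.367 in CM (0.136 to 0.909) and 0.385 in CMT (0.110 to 1.10), the latter not detectable at this depth. RAB18, a small GTPase of droplets (listed as LOC100620478), measured 428, 305 and 549.7 FPKM in the IM, CM and CMT livers, and passed 1.5-fold in CMT versus CM at a log2 ratio of 0.85.

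HSD17B13, a droplet protein of hepatocytes, had the widest spread of the pathway list. It had FPKM values of 4557, 8138 and 525 in the IM, CM and CMT livers, from 24898, 60588 and 2332 reads. CMT was far below both other libraries. HSD17B13 was 1.79-fold higher in CM than in IM (1.76 to 1.81), 15.5-fold lower in CMT than in CM (14.9 to 16.2) and 8.68-fold lower in CMT than in IM (8.32 to 9.06). Its relative HSD17B11 had FPKM values of 1405, 1033 and 1414 in the IM, CM and CMT livers.

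Of the other genes of triglyceride breakdown, 6 of 7 above the minimum lay within 1.5-fold in each comparison, among them ABHD5, the activator of PNPLA2, at FPKM values of 352, 347 and 284 in the IM, CM and CMT livers. That left 14.3% past 1.5-fold, against 23.2% of all features in CM versus IM, 25.7% in CMT versus CM and 16.8% in CMT versus IM. The exception was PNPLA3, a lipase relative that remodels droplet lipid (listed as LOC100049690), with 3.78 in IM, 9.34 in CM and 17.4 in CMT, on 11, 37 and 41 reads. It was higher in CM than in IM at a log2 ratio of 1.30 (ratio 2.47, 1.23 to 5.37) and higher in CMT than in IM at 2.20, so that CMT was the highest library.

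**Figure D4:**
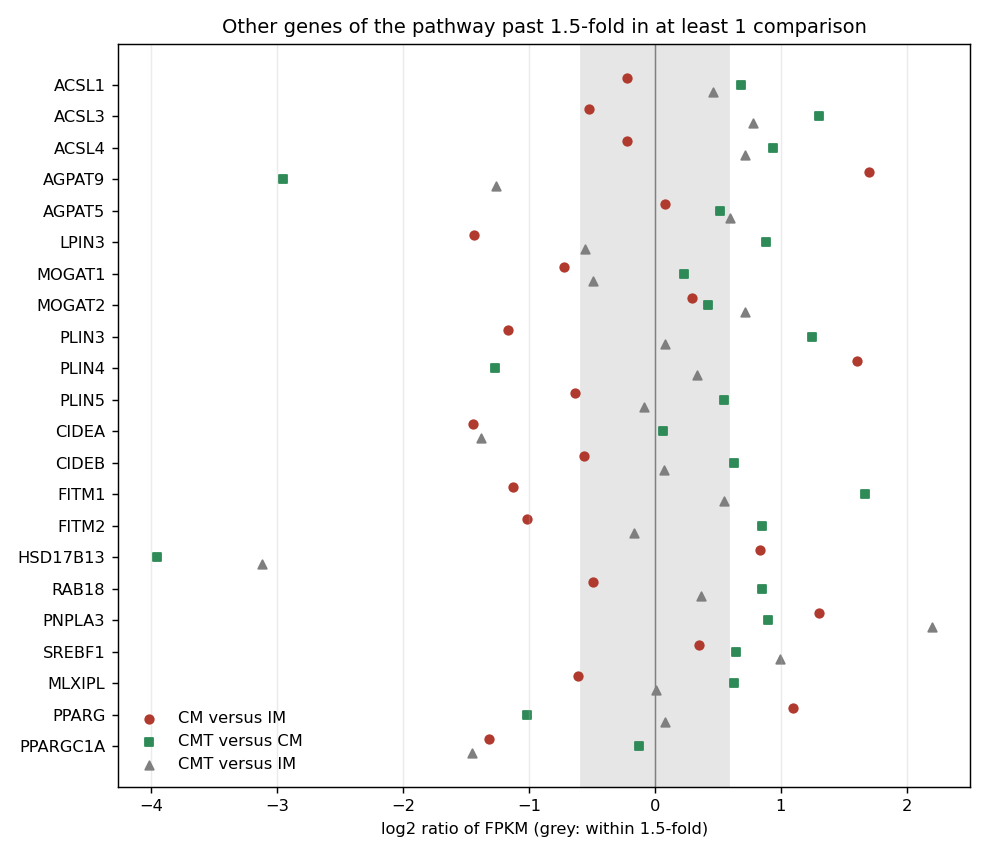
Log2 ratio of FPKM of the 22 genes of the pathway list that were at least 1.5-fold apart in at least 1 of the comparisons CM versus IM (circles), CMT versus CM (squares) and CMT versus IM (triangles). The grey band marks ratios within 1.5-fold. HSD17B13 (-3.95) and AGPAT9 (-2.96) lie farthest to the left in CMT versus CM, and PNPLA3 (2.20) farthest to the right in CMT versus IM.

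Markers of other cell types differed between the pools. The 5 T cell markers had summed FPKM values of 289, 392 and 188 in the IM, CM and CMT livers. Of these, 5 of 5 were at least 1.5-fold lower in CMT than in CM, against 13.5% of all features. Among erythroid markers, beta-globin (HBB) had FPKM values of 17158, 3399.7 and 5151 in the same order, and ALAS2, the heme synthesis enzyme of red cells, had 77.5, 16.2 and 30.6. That order, IM above CMT above CM, was also the order of LPIN1, CIDEC and PNPLA2. The order alone, without the sizes of the differences, was shared with markers of other cell types. The hepatocyte markers APOA1, APOB, TTR, SERPINA1, AMBP, HPX and TAT had the same order, unlike ALB, TF and FGB. The endothelial markers PECAM1, VWF, KDR and STAB2 had it as well, STAB2 by only 152.82 FPKM in CMT against 152.16 in CM. The log2 ratios of CM to IM were -2.335 for HBB and -2.257 for ALAS2. They were -2.39 for LPIN1, -1.07 for CIDEC and -0.54 for PNPLA2. Medians of the same ratio were -0.47 over the 10 hepatocyte markers and -0.31 over the 4 matched endothelial markers. AHSP, a chaperone of alpha-globin, was listed at 0 in CM. The 10 hepatocyte markers had sums of 1147200, 841620 and 905460 in the IM, CM and CMT livers. In CM, 2 of 10 were lower than in IM by 1.5-fold or more, against 12.1% of all features. The 7 matched macrophage markers had sums from 14238 in IM to 16048 in CMT, although MARCO, a scavenger receptor of resident macrophages, was at 414, 82.8 and 317 FPKM in the IM, CM and CMT livers. The sums ranged for the 6 stellate cell markers from 870.9 in CMT to 1023 in IM, for the 4 matched endothelial markers from 723 in CM to 883 in IM and for the 4 cholangiocyte markers from 89.4 in IM to 159 in CM. The part of these cell types in the values of the triglyceride genes was not tested.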

How the data were processed

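Poly-A RNA from liver was sequenced as 3 pooled libraries, and the authors aligned the reads with TopHat at default parameters to Sscrofa10.2 after FastQC, per the methods and labels. The counting program, annotation and tool versions are not given in the sources used here. The authors deposited FPKM values per feature, with no read counts. Genes were matched by symbol, by a RefSeq (Sscrofa11.1) synonym or by the gene number in a LOC name. Because the assemblies differ, no coordinates are given. The triglyceride genes and all lists were chosen with earlier results of these data known.

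Each FPKM equalled reads × 1000 / (length × divisor), with 1 divisor per library, and whole reads were recovered for 23090 of 24277 features above 0 (95.11%), trying lengths of 50 to 10000 bases. A common factor of all 3 read numbers is lost in this step. Ratios were taken on deposited values without a pseudocount, over the 15613 mRNA features that reached 1 FPKM in each of the 3 libraries, and called past 1.5-fold. With 1 library per group no test was run. Counting intervals were 95% exact binomial (Clopper-Pearson) for ratios and Poisson for levels, and cover counting error only. The steps were tested on simulated data. Named genes were the genes of the list, the pathway genes past 1.5-fold in at least 1 comparison and, for LPIN1 and GPAT, the 5 features with the nearest log2 ratios. GPD1, GK, AGPAT6, AGPAT1, AGPAT3, AGPAT4, MOGAT3, HSD17B11, ABHD5, NR1H3 and PPARA, and the cell type markers, fall outside that rule and were named after their values were seen. Alternatives were other minimum values, a pseudocount of 1, a 2-fold threshold, 4 scalings and a counting interval that excludes 1. Python 3.11.15, numpy 2.4.6, pandas 2.3.3, scipy 1.17.1 and matplotlib 3.10.9 were used. A result for 1 erythroid marker, and the sum over that list, are not reported here.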

Additional observations from a re-analysis of the deposited data

How the results depend on the processing

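No paired analysis was possible because each group holds 1 library, and for the same reason no library could be left out. With a 2-fold threshold the counts of the 9 genes went from 5 to 3 in CM versus IM (GPAT, LPIN1 and CIDEC), from 7 to 1 in CMT versus CM (LIPE) and from 4 to 2 in CMT versus IM (LPIN1 and LIPE). Requiring a counting interval that excludes 1 gave 2 of the 9 in CMT versus IM, since LPIN1 has no interval and that of LIPE includes 1 on the recovered reads. For the pathway list, a minimum FPKM of 10 gave 9 genes in CM versus IM in place of 14 and 6 in CMT versus IM in place of 10, by testing fewer genes, and a 2-fold threshold gave 7 in CMT versus CM in place of 16 and 5 in CMT versus IM. The other 46 recomputed totals lay within 1.5 times the reported ones. Counts in 1 direction moved further in 12 cases, 6 with the 2-fold threshold, such as 12 to 3 pathway genes higher in CMT than in CM, and others with a minimum FPKM of 10, such as 5 to 2 higher in CM than in IM, while AGPAT2, LPIN1 and CIDEC higher in CMT than in CM went from 3 to 1 with scaling to column sums or reads. Of 150 recomputed log2 ratios of the triglyceride genes, 0 changed sign and 6 changed side of 1.5-fold, namely AGPAT2 in CM versus IM and in CMT versus CM and LPIN1 in CMT versus CM, each with scaling to equal column sums (-0.39, 0.54 and 0.45) and to recovered reads (-0.37, 0.55 and 0.46). Counting G0S2 as a member was chosen after seeing the data and changed no count of genes past 1.5-fold.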

Other observations

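Of 6 regulators of lipogenic and fasting transcription, 3 were past 1.5-fold between CM and IM, where 23.2% of all features were. PPARG, a nuclear receptor that drives fat storage genes, had FPKM values of 9.22, 19.7 and 9.73 in the IM, CM and CMT livers. These stood for 21, 61 and 18 recovered reads at a length of 907 bases, and the true reads may be a multiple. PPARG was 2.13-fold higher in CM than in IM (1.28 to 3.69). PPARGC1A, a coactivator of fasting and oxidative genes (listed as PPARGC-1), measured 152, 60.8 and 55.6 FPKM in the IM, CM and CMT livers, with log2 ratios to IM of -1.32 in CM and -1.45 in CMT. MLXIPL, which encodes the carbohydrate-responsive factor ChREBP, measured 725, 474 and 731 FPKM in the IM, CM and CMT livers. SREBF1, a master regulator of fatty acid synthesis, measured 917, 1169 and 1823 FPKM in the IM, CM and CMT livers and passed 1.5-fold in CMT versus CM and in CMT versus IM. NR1H3 and PPARA lay within 1.5-fold throughout.

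Among 8998 named mRNA features that reached 10 FPKM in each library, those nearest to LPIN1 in their log2 ratios of CM to IM and CMT to IM were HBB (distance 0.0673), SOCS2 (0.347), SLC25A25 (0.361), ALAS2 (0.379) and SGCD (0.394). HBB and ALAS2 are the globin and the heme synthesis enzyme of red cells. Nearest to GPAT were PLCG2 (0.0895), IFI27L2 (0.151), PBD-2 (0.18), FOXA3 (0.201) and TUBB2B (0.211), of which FOXA3, a liver transcription factor, had FPKM values of 59.6, 201 and 91.2 in the IM, CM and CMT livers. Each distance rests on 3 libraries.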
